A study of Homo sapiens with 8 samples.

Results

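The comparison is that of the 2 libraries whose genotype label is Zab with the 2 labelled WT, chosen by that label alone, which makes 4 of the 8 libraries of the study. All were made from U2OS, a human osteosarcoma cell line, from RNA labelled with 4-thiouridine, which growing cells take up into transcripts in place of uridine. The assay, TT-seq, reads newly made RNA, and the question put to it here is which differences between both groups follow the length of a gene and which do not. The other 4 libraries, 2 labelled MYC O/E and 2 labelled Zab + MYC O/E, entered the filter on low values, the mean of the 8 libraries and the estimate of the spread, and are otherwise given only beside a value of this comparison. All groups share the cell line and the 4-thiouridine, and no label names another treatment, a dose, a time, a clone or the construct behind Zab. As background, Zα and Zβ are the parts of the RNA-editing enzyme ADAR that carry its Z-nucleic-acid-binding fold. The labels name no step that separates labelled from other RNA and do not say whether the replicates were separate cultures: the p-values rest on the difference between the 2 libraries of a group, and that may be technical.

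ADAR itself went against the labels if Zab names a construct with ADAR sequence, which the labels do not say. Its exons (hg19, chr1:154554534-154580662, minus strand) took 33822 and 33777 CPM (read counts scaled to a common library size) in the 2 libraries labelled WT and 528 and 576 CPM in the 2 labelled Zab. The libraries labelled MYC O/E held 445 and 462 CPM and those labelled Zab + MYC O/E held 32123 and 32218 CPM. The libraries labelled Zab were thus 61.2-fold lower than those labelled WT, a change of -5.94 on the log2 scale (adjusted p = 4.5e-40, limma), and every direction given here is one between libraries so labelled. Whether labels or files of the groups were exchanged was not tested; an exchange of Zab and WT would turn every rise and fall. Zab and WT stand for those labelled libraries.

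The deposited values were scaled to CPM by TMM and compared as log2(CPM + 1). A change is thus a difference on that scale and a fold is a ratio of mean CPM. Whole reads recovered from the deposited values served the filter on low values and the count tests. Libraries held between 1839960 and 4072059 recovered reads over coding exons, the 2 Zab libraries the fewest. Per 100 tags of the library, the Zab libraries held 6.55 ± 0.154 (SD, n = 2) recovered reads and the WT libraries 13.1. The MYC O/E libraries held 13.7 and the Zab + MYC O/E libraries 13.5, so the Zab libraries alone were low. The median gene changed by -0.05 under TMM, by -0.24 when scaled to library totals and by -0.63 on the deposited scale, so directions as measured are relative to such a shift. In bulk RNA, fewer cells and less RNA per cell cannot be told apart. As a check of the labelled cell type, the 17 osteosarcoma and bone lineage markers were summed as CPM of the recovered reads, without TMM. They gave 968 and 967 CPM in WT and 785 and 789 CPM in Zab on that scale, which differs from that of the other CPM. SP7, TWIST1 and DLX5 were at 0 in all 4 libraries.

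As background, RNA polymerase II needs longer to cross a long gene than a short one, and agents that slow or stall elongation lower the output of long genes first. Behind the moving polymerase the DNA is underwound, which favours the left-handed Z form at suited sequences, while topoisomerases release the strain and the histone chaperone FACT takes nucleosomes apart and rebuilds them around the polymerase. Long genes also tend to lie in gene-poor chromatin and short genes in gene-rich chromatin, so span and gene density go together along the chromosomes.

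Under TMM, newly made RNA of short genes was higher and that of long genes lower in Zab than in WT. The direction for short genes depends on the scaling: on the deposited scale 575 of all genes rose and 6882 fell. The median of genes over 200 kb minus that of genes up to 5 kb was -0.78 under TMM and -0.75 on the deposited scale. Of 11985 genes tested, 2850 rose (23.8%) and 3106 fell (25.9%) at an adjusted p under 0.05 by limma. Among the 1169 genes with a span, from first to last base, of up to 5 kb, 471 rose and 108 fell, and their median change was 0.37. Among the 798 genes over 200 kb, 59 rose and 289 fell, and their median change was -0.41. The medians between these classes stepped down from 0.22 at 5 to 10 kb and 0.12 at 10 to 20 kb to -0.08 at 20 to 50 kb, -0.25 at 50 to 100 kb and -0.28 at 100 to 200 kb. Both Zab libraries lay on one side of both WT libraries in 8557 genes (71.4%).

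**Figure D1:**
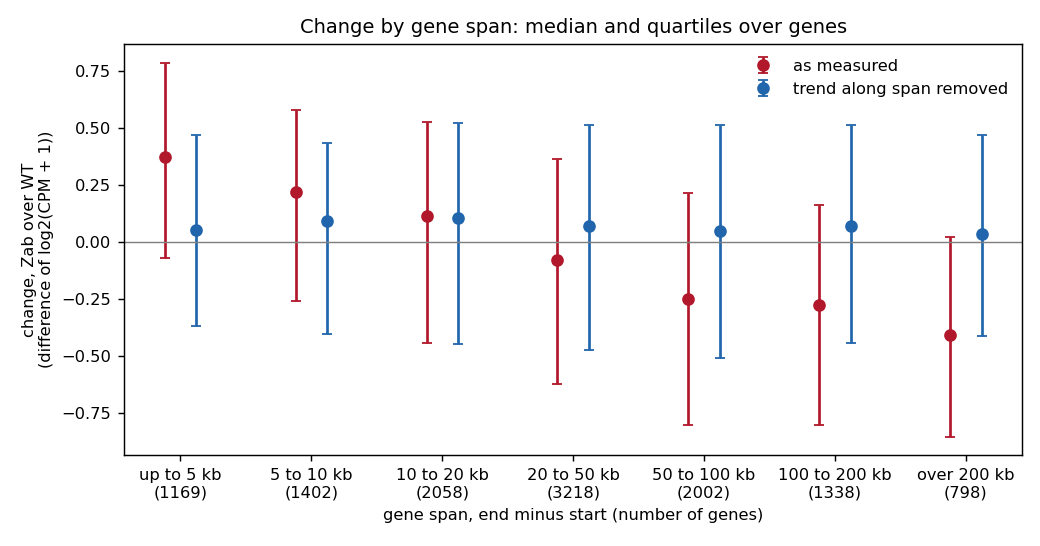
Change between libraries labelled Zab and WT, as a difference of log2(CPM + 1), in 7 classes of gene span in kb, as measured and with the trend along span removed; points are medians over genes and bars run between the quartiles. The median falls from 0.37 in genes of up to 5 kb to -0.41 in genes over 200 kb as measured.

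The 2 libraries of a group had like slopes along span. Relative to the mean of the 8 libraries, the genes over 200 kb stood above those of up to 5 kb by 0.25 and 0.27 in the 2 WT libraries. In the 2 Zab libraries they stood at -0.45 and -0.54 relative to the short genes, so the groups did not overlap. The MYC O/E libraries were nearly level at -0.03 and -0.03, and the Zab + MYC O/E libraries, at 0.28 and 0.29, lay beside WT. Splitting all genes by mean level, by exon length or by the GC content of the promoter left the order in place: genes over 200 kb had a lower median than genes of up to 5 kb in each of 3 equal groups of each property. The difference was smallest in the middle group of exon length, where the medians were 0.24 in 184 short genes and -0.29 in 162 long ones.

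**Figure D2:**
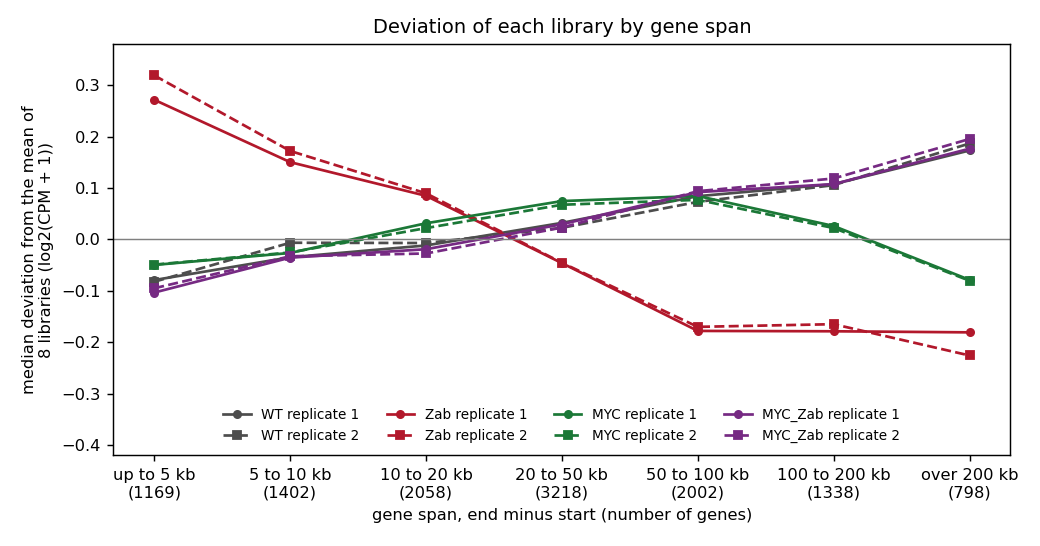
Median deviation of each library from the mean of the 8 libraries, on the log2(CPM + 1) scale, by class of gene span in kb, 1 line per library; MYC and MYC_Zab are the libraries labelled MYC O/E and Zab + MYC O/E. The 2 Zab libraries fall with span, to -0.18 and -0.23 above 200 kb, and the 2 WT libraries rise, to 0.17 and 0.19.

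Most called genes stayed called once the trend along span was removed, by subtracting a smooth curve fitted on log10 span over all genes in each library. After this, 3219 genes stood higher (26.9%) and 2396 lower (20%), and the class medians lay between 0.03 and 0.10. Of the 3106 genes that fell as measured, 2217 still fell, 888 were no longer called and 1 turned to a rise. Of the 2850 that rose, 2510 still rose, 334 were no longer called and 6 turned to a fall, while 708 further genes rose and 173 further genes fell only after removal. The subtraction itself lowers the change of short genes and raises that of long ones, so level class medians and losses at the ends of the scale follow from it. Among genes over 100 kb 379 of 759 falls were lost, and among genes of up to 10 kb 310 of 950 rises. Among changes of at least 1 on the log2 scale, 1891 of 2078 kept their direction and their call.

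The genes that lost their call with the trend removed, named for the size of their change, were histone genes and genes over 100 kb of low level. H2BC9, a replication-dependent histone H2B gene, had 3.23 and 3.21 CPM in WT and 9.61 and 16.5 CPM in Zab, a rise of 1.69 as measured and 0.85 after removal (adjusted p = 0.095, limma). H4C12, H2BS1 and H2AC8 went the same way, from 1.87, 1.75 and 1.51 to 0.98, 0.93 and 0.74. On the long side, ATP8A2 (557 kb, a lipid flippase) fell from 8.08 and 9.62 CPM to 6.003 and 0 CPM, and its change went from -1.89 to -1.40. FGGY (459 kb), NFATC2 (156 kb) and OR51B5 (163 kb) gave -1.89, -1.65 and -1.59 as measured and -1.43, -1.28 and -1.22 after removal. After removal, the adjusted p (limma) was 0.053 for ATP8A2, 0.055 for FGGY, 0.052 for NFATC2, 0.062 for OR51B5 and 0.055 for H4C12, just past the threshold of 0.05. It was 0.18 for H2BS1 and 0.30 for H2AC8. The loss of a call thus does not by itself show that a change follows span. As measured, the calls rest on few reads and on single libraries. ATP8A2 gave -0.49 and NFATC2 -0.56 without Zab replicate 2, -1.78 and -1.45 without WT replicate 2 and -3.31 and -2.77 without Zab replicate 1. FGGY was -1.59 without WT replicate 2 and -1.02 without Zab replicate 2, OR51B5 ranged from -2.09 to -1.12, H2AC8 was 0.57 without WT replicate 1, 2.42 without WT replicate 2 and 1.43 without Zab replicate 1, and H2BS1 was 1.53 without WT replicate 2; ATP8A2 and NFATC2 without Zab replicate 1 and H2AC8 without WT replicate 2 were called, and the other values given here for single libraries left out were not, except OR51B5 without Zab replicate 2 (-2.09).

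The 7 genes that turned sign had small changes on both sides. ZNF609 (225 kb) went from -0.20 to 0.20. RPL41, RPL29 and RPS21, which encode ribosomal proteins, MRPL41 of the mitochondrial ribosome, the peroxidase gene GPX1 and the histone variant gene H2AZ1 rose by 0.17 to 0.35 as measured and stood between -0.35 and -0.16 after removal. As measured, ZNF609, GPX1 and H2AZ1 lost their call without WT replicate 2, RPS21 without WT replicate 1, RPL29 without WT replicate 1 or Zab replicate 2, and MRPL41 without WT replicate 1 or either Zab replicate. After removal, ZNF609 lost its call without WT replicate 1, GPX1 without WT replicate 1 or Zab replicate 2, MRPL41 without WT replicate 2 or either Zab replicate, and H2AZ1 without either WT replicate or Zab replicate 2; RPL41 went from -0.27 to -0.17 without Zab replicate 2. Without those libraries the 5 short genes that lost their call lay between 0.10 and 0.36 as measured and the 3 that lost it after removal between -0.37 and -0.11, and ZNF609 was at -0.18 and 0.17.

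The spacing of the surrounding genes followed the change more closely than span did. Spacing is the mean distance between the midpoints of neighbouring coding genes, taken over a gene and the 10 coding genes on each side of it, and it uses nothing but positions; it was taken up after the data had been seen. Over 11985 genes, which are not independent of each other, Spearman's correlation of the change was -0.45 with spacing and -0.295 with span; span and spacing correlated at 0.435. The correlation with span was -0.124 once spacing was held fixed, and that with spacing was -0.373 once span was held fixed. Genes were split by spacing into 5 bands of equal size. In the band in the densest surroundings (median spacing 27.4 kb) 46.9% rose and 6.09% fell, with a median change of 0.42. In the band in the sparsest surroundings (median 340.2 kb) 7.43% rose and 43.0% fell, with a median change of -0.48, and the bands between had medians of 0.17, -0.08 and -0.35.

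Span and spacing could be read apart where both vary. Within the sparsest band, the 6 classes of genes over 5 kb had medians between -0.54 and -0.44 with no step along span, and the 107 shortest, up to 5 kb, were at -0.08. Within the densest band, the median went from 0.53 in 555 genes of up to 5 kb to 0.27 in 125 genes of 50 to 100 kb and 0.39 in 51 genes of 100 to 200 kb, so genes of 50 to 200 kb in dense surroundings had medians above 0. Long minus short, the difference between genes over 200 kb and genes of up to 5 kb, was between -0.57 and -0.37 in the 5 bands, although the densest band held only 3 genes over 200 kb. Removing span alone left a correlation of -0.333 with spacing. Removing both left 2794 genes higher (23.3%) and 2155 lower (18%). What lies behind the relation with spacing was not tested.

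**Figure D3:**
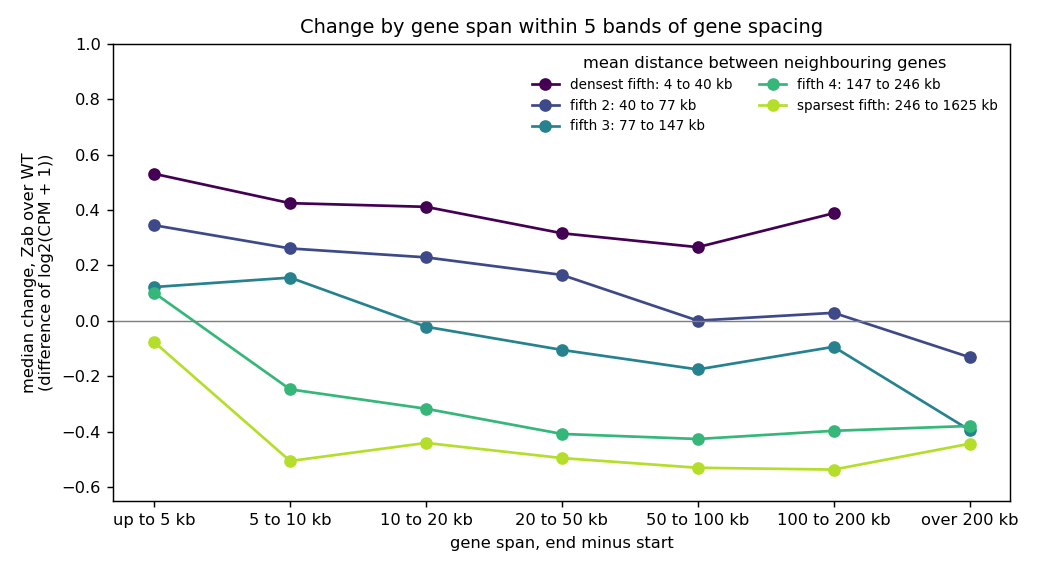
Median change between libraries labelled Zab and WT, as a difference of log2(CPM + 1), by class of gene span in kb, with 1 line for each of the 5 bands of gene spacing. The line of the densest band stays above 0 in the classes up to 200 kb and that of the sparsest band below 0, at -0.54 to -0.44 in all classes over 5 kb.

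Neighbouring genes moved together beyond span. The change of a gene, with the span trend removed, correlated at 0.433 (Spearman) with the median change of its 20 nearest tested genes, and at 0.296 with both span and spacing removed. The same measure taken on the difference between the 2 Zab libraries gave 0.007 and on that between the 2 WT libraries 0.022. Chromosomes differed accordingly: with the span trend removed, the median was -0.34 on chromosome 13, -0.20 on chromosome 4 and -0.12 on chromosome 18, and 0.29 on chromosome 16, 0.40 on chromosome 19 and 0.47 on chromosome 22. With spacing removed too, these 6 medians lay between -0.11 and 0.34, and chromosomes 13 and 22 still marked the 2 ends. The change also correlated with mean level (0.253), exon length (-0.219) and, over the 9707 genes with a promoter in the table, promoter GC content (0.187).

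The largest change of a gene group that did not follow span was in the folding machinery of the endoplasmic reticulum (ER), where secreted and membrane proteins are folded. Of 31 tested ER folding chaperones, 25 rose and 1 fell as measured, and 25 rose and 0 fell with the span trend removed, where the median was 1.34 against 0.07 over all genes; leaving out 1 library gave 23 to 25 rises and 0 to 2 falls as measured. With spacing removed as well, 26 rose and 1 fell, with a median of 1.21. The ER unfolded protein response is the known programme for these genes: the sensors ATF6, IRE1 and PERK respond to unfolded protein, and ATF6 and XBP1 bind promoters of chaperone genes. Its classic sites are the ER stress response element (ERSE, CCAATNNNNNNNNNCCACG) and ERSE-II (ATTGG, any base, then CCACG), which were searched on both strands of the RefSeq promoter table (GRCh38.p14, 250 bases before to 50 after each start). ERSE was found in 7 of the 29 chaperone genes in the table, and in 27 of all 35116 promoters (0.0769%). A gene was counted if any of its promoters matched, while the share over all is per promoter, so the measures differ. ERSE-II was found in 2 of 29 chaperone genes, in HERPUD1 of the degradation genes, and in 0.0541% of all promoters. Further motifs were searched in the same way. The E-box (CACGTG) was found in 7 of the 29 chaperone genes and in 7.26% of all promoters. The unfolded protein response element (UPRE, TGACGTGG) was found in 4 of 29 and in 0.729%. CARE (TGATGNAAT), an ATF4 element, was found in 0 of 29, in 0.991% of all promoters and in 1 of 23 ATF4 targets. Stretches with the letters of ERSE or ERSE-II, in capitals and read 5′ to 3′ on the strand of the gene, are shown for chaperone genes and for HERPUD1 of the degradation genes. The values of these genes follow, so that the sites can be set beside the changes.
HSPA5 (chr9:125241371-125241429, - strand, ERSE): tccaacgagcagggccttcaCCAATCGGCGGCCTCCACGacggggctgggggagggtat
CRELD2 (chr22:49918534-49918592, + strand, ERSE): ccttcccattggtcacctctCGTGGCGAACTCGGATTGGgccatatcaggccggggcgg
CALR (chr19:12938364-12938422, + strand, ERSE): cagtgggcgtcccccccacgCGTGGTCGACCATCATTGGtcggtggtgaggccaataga
CANX (chr5:179698758-179698816, + strand, ERSE): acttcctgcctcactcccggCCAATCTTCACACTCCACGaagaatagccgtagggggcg
PDIA6 (chr2:10812833-10812891, - strand, ERSE): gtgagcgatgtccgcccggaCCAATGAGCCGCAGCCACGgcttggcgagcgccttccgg
ERO1B (chr1:236282163-236282208, - strand, ERSE): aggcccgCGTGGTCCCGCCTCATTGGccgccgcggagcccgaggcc
SDF2L1 (chr22:21642094-21642144, + strand, ERSE-II): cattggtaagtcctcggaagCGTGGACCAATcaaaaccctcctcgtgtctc
HERPUD1 (chr16:56932005-56932055, + strand, ERSE-II): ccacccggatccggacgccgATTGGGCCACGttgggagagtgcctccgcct
HSP90B1 held 2 matches of ERSE and HYOU1 held 2 of ERSE-II, and their stretches are not shown. A match is a description of the letters, not of binding.

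HSPA5, which encodes BiP, the main ER chaperone of the HSP70 family, had 335 and 347 CPM in WT and 4052 and 3996 CPM in Zab. It was 11.8-fold higher, a rise of 3.56 ± 0.05 (SE) as measured and 3.40 with the span trend removed (adjusted p = 1.2e-28, limma). CRELD2, an ER-resident protein of the same stress programme, went from 29.7 and 26.4 CPM to 375 and 351 CPM, 12.9-fold. Both pairs of libraries were far apart compared with their spread. SDF2L1, a BiP cofactor, rose from 23.3 and 26.4 CPM to 226 and 209.6 CPM (8.78-fold). HYOU1, which exchanges the nucleotide of BiP, rose from 200.1 and 169 CPM to 921 and 936 CPM (5.04-fold), and MANF, a secreted BiP partner, from 64.96 and 60.9 CPM to 292 and 267 CPM (4.44-fold). The lectin chaperones, which hold glycoproteins, rose less: CALR 3.76-fold and CANX 2.37-fold.

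The disulfide isomerases and the remaining chaperones rose in the same range. P4HB went from 445 and 433 CPM to 1309 and 1363 CPM (3.04-fold), PDIA4 from 64.3 and 60.2 CPM to 257 and 238 CPM (3.98-fold) and PDIA6 from 296 and 303 CPM to 759 and 737 CPM (2.498-fold). HSP90B1, the ER form of HSP90, went from 314 and 343 CPM to 904 and 955 CPM (2.83-fold). DNAJC3, an ER cochaperone with a span of 118 kb in sparse surroundings, rose from 10.7 and 9.26 CPM to 37.8 and 31.9 CPM, against the trends of both properties. Not all members moved: DNAJC10, a reductase, was the 1 that fell as measured, by 0.38, with no call after removal (-0.07) nor without WT replicate 1 or Zab replicate 2 (-0.26 each). The oxidase gene ERO1A stood at -0.28 with no call, and was called without WT replicate 2 (-0.39) and without Zab replicate 1 (-0.32). The oxidase gene ERO1B, which carries an ERSE match, held 2.59 and 4.99 CPM in WT and 2.401 and 4.79 CPM in Zab; its groups overlapped and it was not called. DNAJB9 rose by 0.63 as measured, but its call was lost after removal (0.42), without WT replicate 1 (0.48) and without Zab replicate 2 (0.49).

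**Figure D4:**
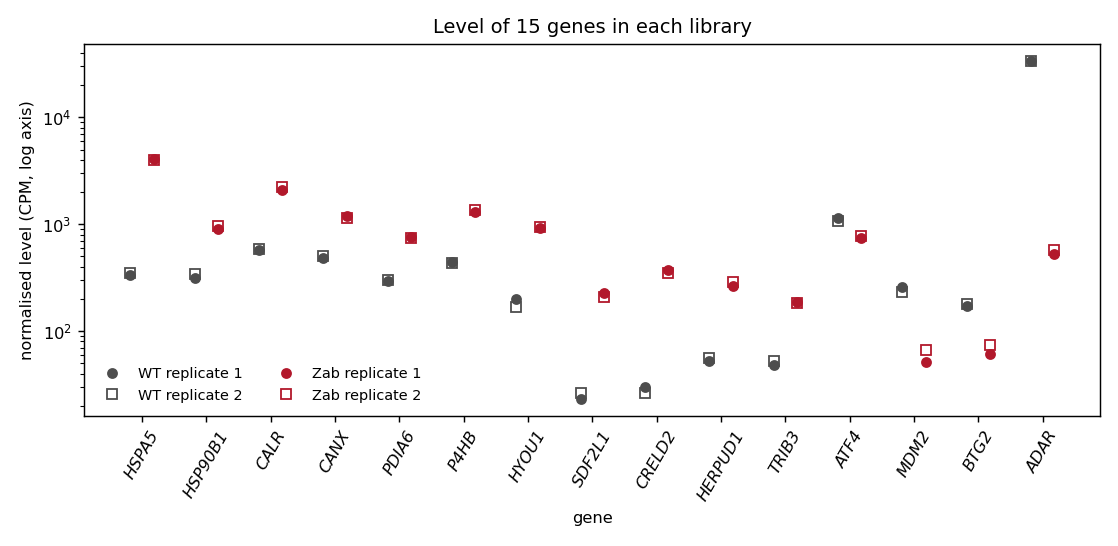
CPM on a log axis in each library labelled WT and Zab, 1 point per library, for 15 genes: ER genes, TRIB3, ATF4, the p53 targets MDM2 and BTG2, and ADAR. The 2 libraries of a group lie close together, and HSPA5 lies at 335 and 347 CPM in WT and at 4052 and 3996 CPM in Zab.

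Downstream steps of the secretory route rose with smaller changes. For comparison, 23.8% of all genes rose and 25.9% fell as measured, and 26.9% and 20% after removal. Of 21 tested genes of ER-associated degradation, which returns misfolded proteins to the cytosol, 13 rose and 3 fell as measured (median 0.56, but -0.07 on the deposited scale), and 15 rose and 2 fell with the span trend removed (median 0.56); without WT replicate 1 the counts were 11 and 1, and 13 and 1. HERPUD1, a membrane adaptor of this route, rose from 52.7 and 56.3 CPM to 264 and 289.9 CPM (5.08-fold). Its ligase SYVN1 rose 2.57-fold, the ligase partner SEL1L 2.22-fold, the mannosidase-like EDEM1 2.27-fold, the signal peptide peptidase HM13 1.96-fold and VCP, which pulls proteins out of the membrane, 1.48-fold (but -0.07 on the log2 scale on the deposited scale), whereas UBXN4 fell from 39.4 and 50.6 CPM to 22.8 and 17.6 CPM. The 32 coat and cargo receptor genes of ER to Golgi transport gave 17 rises and 3 falls as measured (median 0.40, but -0.23 on the deposited scale) and 22 rises and 1 fall after removal (median 0.51), against 19 and 1 as measured without Zab replicate 2 and 20 and 3 after removal without Zab replicate 1. TMED9, a cargo receptor, rose from 104 and 94.1 CPM to 292 and 291 CPM (2.95-fold), SURF4 2.07-fold and the COPI subunit COPG1 1.85-fold.

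The translocon carries new chains into the ER. Of 31 genes of the translocon and of signal peptide handling, 10 rose and 9 fell as measured (0.003 in the median, but -0.20 scaled to library totals and -0.61 on the deposited scale, where 2 rose and 20 fell). These counts are near the shares over all genes (23.8% and 25.9%). After removal 14 rose and 8 fell, with a median of 0.18, but -0.14 with mean level removed as well. The rises included the channel and the glycosylation complex, with SEC61A1 1.62-fold, RPN1 1.88-fold and DDOST 1.62-fold higher. SRP9 of the signal recognition particle fell from 58.8 and 63.4 CPM to 27.02 and 24.5 CPM. The count of falls after removal was 5 without WT replicate 1 and 4 without WT replicate 2.

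The transcription factors of the response did not move as one. Of 18 tested sensors and factors of the unfolded protein response, 7 rose and 3 fell as measured (median 0.23, but -0.37 on the deposited scale), and 6 rose and 3 fell after removal. The counts after removal are near the shares over all genes, 26.9% and 20%. As measured, those shares are 23.8% and 25.9%. DDIT3, which encodes the stress factor CHOP, rose from 10.3 and 9.26 CPM to 34.8 and 39.9 CPM (3.81-fold). CREB3L2, an ER-bound factor of 127 kb, rose from 26.2 and 22.8 CPM to 66.04 and 43.6 CPM, CEBPB rose 1.96-fold and NFE2L1 1.69-fold. ATF4, the main factor of the amino acid branch, which is largely set by translation, fell from 1140 and 1069 CPM to 746 and 769 CPM, by 0.54 as measured and to -0.92 after removal. NFE2L2, the factor of the oxidative stress response, fell from 108 and 119 CPM to 49.8 and 49.5 CPM. XBP1 rose by 0.37 as measured, stood at -0.26 on the deposited scale, was not called without WT replicate 1 (0.29) and was not called after removal (0.20); the exon counts do not show its splicing.

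Targets of ATF4 were split in the same way. Of 30 tested, 16 rose and 7 fell as measured (median 0.30, but -0.34 on the deposited scale), and 15 rose and 7 fell after removal; the falls after removal were 4 without WT replicate 1 or without Zab replicate 2. TRIB3, a pseudokinase, rose from 47.8 and 52.4 CPM to 186 and 182 CPM (3.67-fold), ATF5 3.06-fold and PHGDH, the first enzyme of serine synthesis, 2.08-fold. The amino acid transporter SLC7A5 rose 1.602-fold, while the cystine transporter SLC7A11 fell from 116 and 118 CPM to 46.8 and 44.2 CPM. Over the genes tested that hold ERSE or ERSE-II in the promoter and lie outside the lists of ER folding and degradation genes, XBP1 among them, 10 of 19 rose and 4 fell as measured (23.8% and 25.9% over all genes), and 8 rose and 3 fell after removal (26.9% and 20%). Outside those lists, the 121 genes with UPRE gave 26 rises and 36 falls as measured, and 38 and 28 after removal. The 79 with CARE gave 17 and 27, and 20 and 23. The 1239 with an E-box gave 341 and 322, and 376 and 252.

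Replication-dependent histone genes, which are intronless and transcribed in S phase, rose, and their median was lower with the span trend removed. Of 69 genes in the list 49 were tested, with a median span of 0.459 kb. As measured 42 rose and 0 fell (median 1.51), and after removal 33 rose and 2 fell (median 0.71); 39 rose and 2 fell as measured without Zab replicate 2, and after removal 1 fell without WT replicate 1 and 0 without Zab replicate 1. H1-4, a linker histone gene, rose from 1102 and 1112 CPM to 3367 and 3384 CPM, 3.05-fold, a change of 1.61 as measured and 0.95 after removal. H1-2 rose 2.95-fold and H3C2 3.302-fold. Histone genes share sequence, so how reads were divided among copies is uncertain. The remaining 185 tested single-exon genes of up to 5 kb, with a median span of 2.35 kb, gave 0.27 as measured and -0.18 after removal. The histones stood above them on both scales, but the 2 sets were not matched for span. Histones lie at the short end of the span scale and entered the fit of the curve, so their value after removal depends on the curve there. Among replication-independent variants, the linker histone gene H1-10 rose 2.44-fold and H2AX, which is phosphorylated at DNA breaks, rose 2.34-fold; of the 11 tested, 6 rose and 1 fell as measured (median 0.22, but -0.41 on the deposited scale) and 6 rose and 3 fell after removal, and 4 and 0 as measured and 5 and 1 after removal without WT replicate 2.

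Ribosomal protein genes, which are short, changed their balance with the trend removed. Of 78 tested cytosolic ones, 41 rose and 21 fell as measured (median 0.14, but -0.06 scaled to library totals and -0.49 on the deposited scale). After removal 24 rose and 38 fell (median -0.10, but 0.05 with the trend along exon length removed in its place). RPL8 rose from 1958 and 1926 CPM to 3771 and 3788 CPM, RPS2 from 1959 and 2004 CPM to 3343 and 3274 CPM and RPSA from 1136 and 1188 CPM to 1986 and 2011 CPM, while RPS24 fell from 417 and 401 CPM to 202 and 182 CPM. Many of these genes have near-identical processed copies, so their reads may be divided among them. Of 76 mitochondrial ribosomal proteins, 21 rose and 21 fell as measured and 11 rose and 28 fell after removal (median -0.19); without WT replicate 2 the counts were 12 and 16 as measured and 9 and 17 after removal. Over all genes, 23.8% rose and 25.9% fell as measured, near the counts of this list over all libraries, and 26.9% and 20% after removal. MRPL12 and MRPL28 rose 2.03-fold and 1.81-fold, MRPL1 fell from 22.3 and 15.7 CPM to 3.002 and 4.26 CPM and MRPL30 from 94.05 and 97.6 CPM to 49.2 and 49.5 CPM.

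Genes of glycolysis were mostly higher under TMM. Of 23, 14 rose and 2 fell as measured (median 0.61, but 0.00082 on the deposited scale, where 5 rose and 7 fell), and 15 rose and 2 fell after removal (median 0.58), with 1 fall left without WT replicate 1, WT replicate 2 or Zab replicate 2. Enolase ENO1 rose from 3868 and 3826 CPM to 6560 and 6714 CPM, pyruvate kinase PKM from 2794 and 2781 CPM to 5082 and 5292 CPM, GAPDH 1.49-fold (but -0.06 as a log2 change on the deposited scale) and PFKFB4, which makes the activator of phosphofructokinase, from 4.52 and 7.84 CPM to 37.8 and 27.7 CPM. The 76 subunits of oxidative phosphorylation gave 23 rises and 18 falls as measured, near the shares over all genes (23.8% and 25.9%), but 2 and 58 on the deposited scale. After removal 18 rose and 24 fell (median -0.11), against 26.9% and 20% over all genes. NDUFA5 of complex I fell from 14.2 and 18.2 CPM to 1.201 and 3.19 CPM, SDHD of complex II from 101 and 101 CPM to 34.2 and 31.9 CPM and ATP5PB of the ATP synthase from 244 and 242 CPM to 138 and 132 CPM, whereas CYC1 of complex III rose 1.94-fold and NDUFA11 2.22-fold. Genes of cholesterol synthesis and its control gave 16 rises and 3 falls among 27 as measured (median 0.50, but -0.09 on the deposited scale) and 15 and 3 after removal (median 0.61). SREBF2, the factor that drives this pathway, rose from 137 and 136 CPM to 292 and 278 CPM, INSIG1, which holds the factor in the ER, 3.02-fold and FDPS 1.73-fold.

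Protein quality control outside the ER is the work of the proteasome and of cytosolic heat shock proteins. The 32 proteasome subunits gave 11 rises and 12 falls as measured (23.8% and 25.9% over all genes; median 0.011, but -0.19 scaled to library totals and -0.62 on the deposited scale, where 0 rose and 27 fell). After removal 11 rose and 13 fell; PSMD3, ADRM1 and PSMD2 rose 1.56-fold, 1.63-fold and 1.38-fold (PSMD2 with a log2 change of -0.18 on the deposited scale), and PSMA3 fell from 75.6 and 77.7 CPM to 30.6 and 30.3 CPM. Among 28 cytosolic heat shock genes, 15 rose and 8 fell as measured (median 0.25, but -0.38 on the deposited scale) and 12 rose and 8 fell after removal (median 0.17, but -0.18 with mean level removed as well). After removal, 26.9% of all genes rose and 20% fell. HSPA1A and HSPA1B, the inducible HSP70 genes, whose near-identical sequences make their division uncertain, rose 3.09-fold and 3.74-fold, the constitutive HSPA8 rose 1.47-fold (but -0.08 as a log2 change on the deposited scale), and HSPA6 rose from 0.646 and 0.713 CPM to 9.61 and 11.7 CPM. HSP90AA1, the inducible cytosolic HSP90, fell from 1797 and 1722 CPM to 741 and 774 CPM and the mitochondrial cochaperonin HSPE1 from 160.3 and 148 CPM to 80.4 and 78.7 CPM.

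Targets of p53, the tumour suppressor that U2OS cells retain, fell as a group on both scales. Of 31 tested, 7 rose and 20 fell as measured (median -0.57), and 6 rose and 19 fell after removal (median -0.56 against 0.07 over all genes). The shares over all genes are 23.8% and 25.9% as measured and 26.9% and 20% after removal. MDM2, the ligase that degrades p53 and its best known target, fell from 256 and 233 CPM to 51.03 and 65.96 CPM, 4.18-fold, by 2.05 as measured and to -1.87 after removal (adjusted p = 1e-14, limma). BTG2, an antiproliferative gene of only 4.08 kb, fell from 173 and 177 CPM to 61.2 and 74.5 CPM, and GADD45A, also short, from 167 and 159.6 CPM to 67.2 and 72.3 CPM, both against the trend along span. TIGAR fell from 167 and 148 CPM to 66.6 and 60.6 CPM, SESN1 from 21.98 and 20.3 CPM to 6.003 and 2.66 CPM and the death receptor gene FAS from 20.04 and 14.6 CPM to 6.003 and 4.26 CPM. The cell cycle inhibitor CDKN1A fell less, from 396 and 392 CPM to 281 and 302 CPM. GDF15, which is also a target of ATF4, rose 1.84-fold.

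Cell cycle genes were split by gene rather than by group. Of 41 genes of the kinetochore and mitosis, 14 rose and 18 fell as measured (23.8% and 25.9% over all genes). After removal 14 rose and 16 fell (26.9% and 20% over all genes). CENPF, a kinetochore protein of 61.4 kb, fell from 241 and 239 CPM to 72.6 and 59.05 CPM, and the kinesin gene KIF18A from 28.8 and 37.1 CPM to 3.602 and 5.32 CPM. ASPM, a spindle pole gene, fell from 51.4 and 61.6 CPM to 4.803 and 17.02 CPM, by 2.49 as measured; after removal its change was -2.20, and -1.38 without Zab replicate 1. TOP2A, the topoisomerase that untangles chromosomes, fell from 472 and 462 CPM to 225 and 213 CPM although its surroundings are dense. In contrast CDC20, which activates the anaphase ligase, and the kinase gene PLK1 rose 1.92-fold and 2.11-fold. Of 45 genes of DNA replication, 19 rose and 14 fell as measured (median 0.20, but -0.42 on the deposited scale) and 20 rose and 8 fell after removal (median 0.20). The helicase subunit MCM7, the licensing factor CDT1 and the polymerase gene POLD1 rose 1.65-fold, 2.11-fold and 1.93-fold, while DBF4 and CDC7, which together form the kinase that fires origins, fell from 85.00 and 90.1 CPM to 23.4 and 13.3 CPM and from 15.2 and 17.5 CPM to 3.602 and 4.26 CPM. The DNA replication counts were 14 and 9 as measured and 16 and 4 after removal without WT replicate 1, and 18 and 5 after removal without Zab replicate 1. Of 49 canonical MYC targets, 26 rose and 13 fell as measured (median 0.23, but -0.41 on the deposited scale) and 24 rose and 13 fell after removal (median 0.14, but -0.27 with mean level removed as well); the ribosome assembly genes BOP1 and PES1 rose 2.27-fold and 1.87-fold.

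Interferon-stimulated genes showed large changes in both directions at low levels. Of 39 in the list 26 were tested, of which 11 rose and 7 fell as measured (median 0.62, but -0.14 with a filter at 5 CPM and -0.28 over genes counted on 1 transcript in the 4 libraries). The falls are near the share over all genes, 25.9%, where 23.8% rose. With the span trend removed, 26.9% of all genes rose and 20% fell. After removal 11 rose and 6 fell (median 0.66, but -0.08 over genes counted on 1 transcript); without WT replicate 1, 4 fell as measured. ISG15, a ubiquitin-like modifier, rose from 8.403 and 8.55 CPM to 57.03 and 73.9 CPM (7.73-fold) and OASL, an antiviral gene, from 0.646 and 3.21 CPM to 40.2 and 30.3 CPM (18.3-fold). IFIT1 and IFIT3, which bind viral RNA, rose from 1.29 and 0.713 CPM to 9.61 and 7.45 CPM and from 3.23 and 1.43 CPM to 9.61 and 9.57 CPM; the call of IFIT3 was lost without WT replicate 2 (1.31, and 1.25 after removal). IFIT2 had 0.646 and 0 CPM in WT and 10.8 and 5.32 CPM in Zab, and its ratio of 24.9 has a 95% counting interval of 5.88 to 202. Reads mostly came in pairs, so this and the later counting intervals are too narrow. The antiviral factor gene SAMD9 fell from 24.6 and 19.2 CPM to 0 and 1.06 CPM and its neighbour SAMD9L from 9.05 and 4.28 CPM to 0 and 1.06 CPM, so neither sign held for the group.

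Genes that sense Z-form or double-stranded RNA, among which ADAR is counted, gave 5 rises and 6 falls of 18 as measured and 6 rises and 5 falls after removal, and 3 rises without WT replicate 2 on both. The counts over all libraries are near the shares over all genes, 23.8% and 25.9% as measured and 26.9% and 20% after removal. OAS1, which makes the activator of RNase L, rose from 1.29 and 0.713 CPM to 6.003 and 6.38 CPM, with the call lost without WT replicate 2 (1.64, and 1.62 after removal). Its relative OAS2 had 0.646 and 0 CPM in WT and 4.803 and 7.45 CPM in Zab, a ratio of 18.95 with a 95% counting interval of 4.5 to 161. DICER1, the nuclease that cuts microRNA hairpins, fell 2.64-fold, EIF2AK2, the kinase PKR, fell 1.77-fold, and TLR3, a receptor for double-stranded RNA, fell from 3.23 and 3.56 CPM to 0 and 0 CPM, 4.02-fold when the 0 in Zab is read as 3 reads over the group. ZBP1, the other human protein with this fold, was too low to be tested. Inflammatory genes under NF-kB gave 14 rises and 3 falls of 25 as measured (median 0.55, but -0.05 on the deposited scale) and 12 rises and 3 falls after removal (median 0.46). IER3 rose from 106 and 120.1 CPM to 386 and 422 CPM and NFKBIA, the inhibitor of the factor, 2.51-fold; CSF2, a cytokine gene outside the list, had 1.94 and 0 CPM in WT and 11.4 and 20.2 CPM in Zab. BIRC3, an inhibitor of apoptosis, fell from 14.9 and 14.3 CPM to 1.201 and 2.13 CPM, and REL from 33.6 and 28.5 CPM to 11.4 and 4.26 CPM, where the change after removal was -1.74 and -1.13 without Zab replicate 2. Immediate early genes, which are short and respond within minutes to growth signals, gave 11 rises and 7 falls of 29 as measured (median 0.21, but -0.42 on the deposited scale) and 6 rises and 9 falls after removal; SRF and IER2 rose 2.21-fold and 1.89-fold and ZFP36L1 fell 1.68-fold. IER5L rose from 10.3 and 2.14 CPM to 20.4 and 28.7 CPM, by 2.08 as measured and 1.14 without WT replicate 2; after removal it was 1.76, 2.70 without WT replicate 1, and 0.85 with no call without WT replicate 2. EGR2, a zinc finger gene, had 1.29 and 3.56 CPM in WT and 0 in Zab; its call was lost without WT replicate 2 (-1.19), Zab replicate 1 (-1.71) or Zab replicate 2 (-1.71).

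FACT has 2 subunits, and they moved apart. SUPT16H fell from 264 and 278 CPM to 146 and 168 CPM, by 0.79 as measured and to -0.63 after removal. SSRP1 rose from 557 and 524 CPM to 726 and 737 CPM, by 0.44 as measured and 0.36 after removal, but stood at -0.20 on the deposited scale. TOP1, the topoisomerase that relaxes DNA around the polymerase, fell from 259.5 and 247 CPM to 125 and 118 CPM, by 1.05 as measured and to -0.72 after removal. Over the 26 tested genes of FACT and other histone chaperones, 9 rose and 9 fell as measured (23.8% and 25.9% over all genes; median 0.09, but -0.11 scaled to library totals, where 7 rose and 12 fell, and -0.54 on the deposited scale, where 0 rose and 18 fell). After removal 11 rose and 8 fell (median 0.04, but -0.017 on the deposited scale), against 26.9% and 20% over all genes. ATRX, a long gene of 281 kb, fell 3.09-fold, NAP1L1 2.26-fold, ASF1A 2.77-fold and NPM1 1.56-fold.

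The extracellular matrix is encoded by many long genes, though not all of those named here are long. Of 39 genes of the extracellular matrix, with a median span of 75.6 kb, 15 rose and 6 fell as measured (median 0.11, but -0.09 scaled to library totals and -0.52 on the deposited scale), and 22 rose and 5 fell after removal (median 0.49). Among all genes, 23.8% rose and 25.9% fell as measured, and 26.9% and 20% after removal. TGFBI rose from 25.5 and 24.6 CPM to 126 and 119 CPM (4.89-fold), the collagen gene COL6A2 2.69-fold, TNC 1.72-fold and AGRN 1.82-fold, while COL12A1 fell 2.003-fold. LUM had 2.91 and 3.56 CPM in WT and 0 in Zab, a fall of 3.82-fold with that 0 read as 3 reads over the group. COL1A1, a collagen gene, had 278 and 306 CPM in WT and 277 and 261 CPM in Zab and was not called. Of 32 tested long genes of signalling and guidance, with a median span of 648.1 kb, 1 rose and 13 fell as measured (median -0.50), and 6 rose and 4 fell after removal (median 0.02, but -0.04 on the deposited scale). The 1 that rose was PRKCA, from 47.5 and 39.5 CPM to 70.8 and 51.1 CPM; none rose as measured without WT replicate 2, when PRKCA was at 0.32 and 10 fell, or without Zab replicate 1, when it was at 0.23 and 12 fell. DST, which encodes a cytoskeletal linker of 497 kb, fell from 368 and 356 CPM to 97.9 and 105 CPM, and its change went from -1.83 to -1.35 with the trend removed; NRG1 gave -1.80 and -1.40, and TCF12 -0.91 and -0.47.

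Among genes over 100 kb, the largest rises belonged to ARHGEF4, MICAL2, ADCY9, DNAJC3, LHPP and MAP1B. MAP1B, a microtubule-binding protein of neurons and tumour cells, rose from 3071 and 3173 CPM to 9934 and 9440 CPM (3.103-fold, 1.97 after removal), and MICAL2, which oxidises actin, rose from 192 and 171 CPM to 568 and 692 CPM. The adenylate cyclase gene ADCY9 rose from 10.3 and 5.34 CPM to 27.6 and 28.2 CPM, ARHGEF4 from 0.646 and 1.43 CPM to 7.204 and 5.32 CPM and LHPP from 4.85 and 3.56 CPM to 16.2 and 14.9 CPM. Among genes of up to 10 kb, the largest falls belonged to TEX30, YAE1, SULT1A1, NAP1L3, ZBED5 and THAP1. These had few reads in Zab: THAP1, a transcription factor, went from 17.8 and 15.3 CPM to 6.003 and 1.06 CPM and ZBED5 from 42.98 and 33.5 CPM to 13.8 and 3.19 CPM. As measured, THAP1, ZBED5, SULT1A1 and NAP1L3 changed by -2.20, -2.31, -2.41 and -2.35, and by -1.33, -1.40, -1.53 and -1.48 without Zab replicate 2; YAE1 changed by -2.59, and by -1.57 without Zab replicate 1. After removal, the values without those libraries were -1.46, -1.57, -1.74 and -1.75, and -1.73 for YAE1, all still called. SULT1A1 has near-identical copies.

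By the rule for named genes, the 8 largest rises as measured were those of SPRR2D, LCN2, OASL, CCL5, OLAH, CRELD2, HSPA5 and KLHDC7B, of which CRELD2 and HSPA5 had 28.05 and 341 CPM in WT on average and the others at most 2.12 CPM. SPRR2D, a protein of the cornified envelope of skin, had 2 reads in 1 WT library and none in the other, against 139 and 126 CPM in Zab, a ratio of 411 with a 95% counting interval of 107 to 3232. KLHDC7B rose from 0.646 and 0 CPM to 13.2 and 14.9 CPM (ratio 43.5, interval 10.9 to 353). LCN2, an iron-binding protein of inflamed epithelia, and CCL5, a chemokine, had 0 reads in both WT libraries and 18.01 and 14.4 CPM and 16.8 and 8.51 CPM in Zab. With 0 read as 3 reads over the group, they were 31.8-fold and 24.9-fold higher. Reads mostly came in pairs, so these ratios are too high as lower bounds. OLAH, a thioesterase of fatty acid synthesis, rose from 3.88 and 0.356 CPM to 27.6 and 36.2 CPM. All of them stayed called with the span trend removed.

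The largest falls besides ADAR and SAMD9 were in genes of 29 to 92 kb. SMC6, a subunit of the SMC5/6 complex, fell from 30.7 and 36.7 CPM to 3.602 and 2.13 CPM and PIK3CA, the catalytic subunit of PI3 kinase, from 30.1 and 27.1 CPM to 1.201 and 4.26 CPM. STXBP3, a regulator of membrane fusion, fell from 17.1 and 15.7 CPM to 0 and 1.06 CPM, where 2 reads in Zab give a ratio of 30.8 with an interval of 7.85 to 244. ZNF33A and CFAP300 had no read in Zab and were 12.5-fold and 9.08-fold lower with that 0 read as 3 reads over the group. FAM161A was the eighth by size as measured, at -2.90. THNSL1 and TEX30 were among the 8 largest falls with the trend removed, at -2.87 and -2.84.

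**Figure D5:**
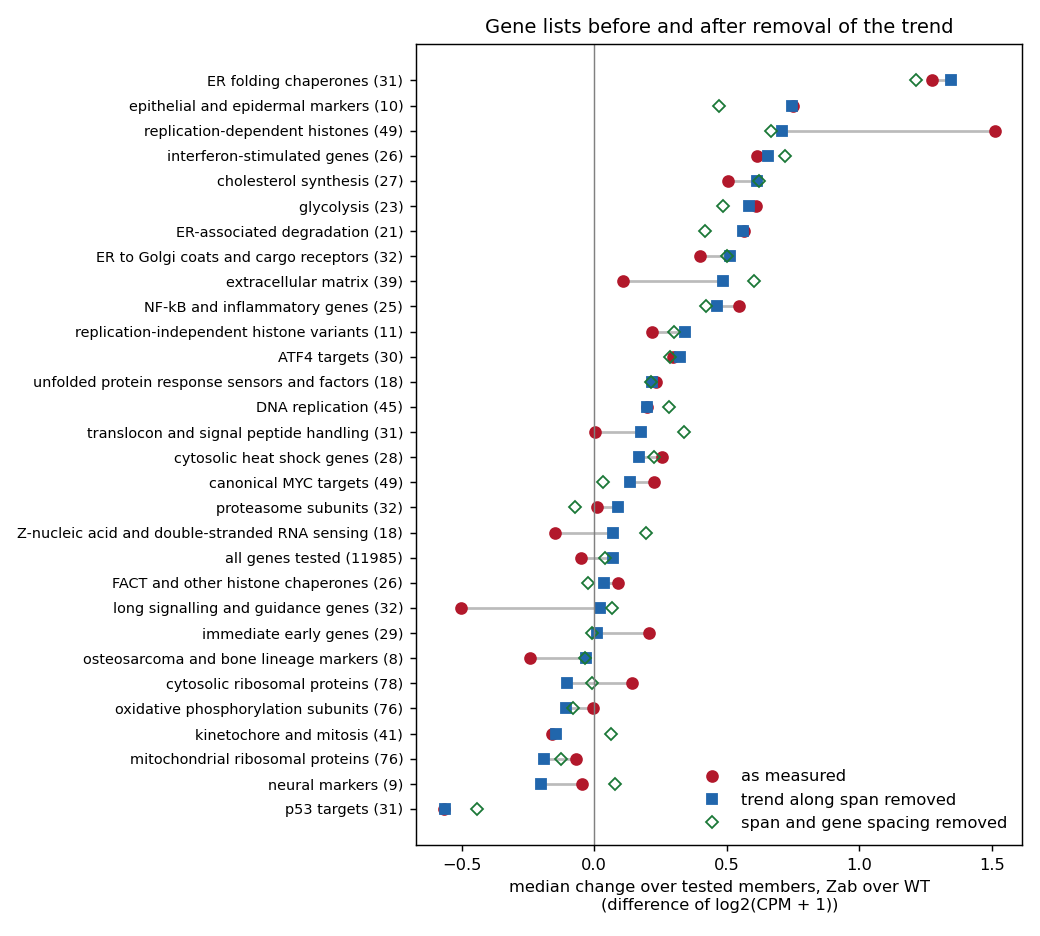
Median change over the tested members of each gene list, as a difference of log2(CPM + 1), as measured, with the span trend removed and with span and gene spacing removed, 1 row per list with the number of tested genes. ER folding chaperones lie at 1.27 and 1.34, replication-dependent histones at 1.51 and 0.71, p53 targets at -0.57 and -0.56, and long signalling and guidance genes at -0.50 and 0.02, in each case as measured and with the span trend removed; as measured, the medians of several lists change sign under other scalings, ER-associated degradation (0.56), NF-kB genes (0.55) and cholesterol synthesis (0.50) included.

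Markers of other cell types moved too. Among 8 tested bone lineage markers, MSX1 rose and RUNX2 and SPP1 fell as measured, and SPP1 fell after removal; each of these calls was lost without at least 1 library, among them WT replicate 2, where RUNX2 was -0.75, SPP1 -1.14 and MSX1 0.88; SPP1 was still called, at -2.44, without Zab replicate 2. All sums over markers given here are CPM of the recovered reads, without TMM, unlike the CPM of single genes. The 23 epithelial and epidermal markers summed to 2581 and 2570 CPM in WT and 4366 and 4484 CPM in Zab, with 6 of them at 0 in all 4 libraries. Most of these sums lay in 2 keratin genes: KRT18 had 814 and 815 CPM in WT and 1567 and 1552 CPM in Zab (1.91-fold). KRT81 had 760 and 770 CPM in WT and 1675 and 1660 CPM in Zab (2.18-fold). Of the 10 epithelial and epidermal markers tested, 6 rose and 1 fell, as measured and after removal. The keratin gene KRT17 rose 3.03-fold, while EPCAM, an epithelial adhesion gene, had 2.59 and 2.14 CPM in WT and 0 in Zab and was not called without WT replicate 1 (-1.64). The 16 blood cell markers summed to between 39.1 and 61.0 CPM in the 4 libraries, with CD3E, CD14, LYZ, HBB, HBA1 and NKG7 among those at 0. The 10 endothelial markers summed to 52.3 and 34.4 CPM in WT and 25 and 12.4 CPM in Zab, with PECAM1, CLDN5 and ESAM at 0. Neural markers summed to between 234 and 262 CPM in all 4 libraries; TUBB3 rose 2.07-fold, and NEFL and SYP fell 1.5-fold and 3.32-fold. The part of the epithelial markers in the other results was not tested.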

How the data were processed

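TT-seq values over coding exons were compared between 2 libraries labelled Zab and 2 labelled WT; the 4 other libraries entered the filter on low values, the mean of the 8 libraries and the estimate of the spread. Per the submitters' processing notes, the tools were STAR, Trim Galore 0.6.6, bedtools 2.29.2 and SAMtools 1.11 and the builds hg19 and dm6. Per the file headers, HOMER's analyzeRepeats counted the opposite strand over RefSeq exons of hg19 coding genes, keeping in each library 1 transcript for a gene symbol. The deposited values are a signal: each is a whole number of reads multiplied by the library's own factor, on a basis the sources used here do not state. Between 99.95% and 100% of values gave whole reads within 0.02. Of values from 1 to 20 reads, 77.2% to 82.7% were even, so reads mostly came in pairs.

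Deposited values were scaled to CPM by TMM in edgeR 4.0.16, after filterByExpr (at least 10 reads) on the recovered reads. They were tested as log2(CPM + 1) with limma 3.58.1 (trend in the prior variance, 8 libraries, 4 residual degrees of freedom, R 4.3.3). Benjamini-Hochberg adjustment was used, with a threshold of 0.05. With 2 libraries a group, an exact permutation test could not give a p below 0.333. The trend along span, end minus start, was removed per library with loess (span 0.5, degree 1) on log10 span and the test repeated; gene spacing was added the same way. edgeR's and DESeq2's (1.42.0) count tests, other scalings, filters, pseudocounts and curves were alternatives. Intervals of ratios with 1 to 3 reads are exact 95% intervals and cover counting error only. These intervals, and the reading of a 0 as 3 reads over a group, take reads as independent. Since reads mostly came in pairs, the intervals are too narrow and the ratios over a 0 are too high as lower bounds.

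The members and gene lists were chosen with earlier results of these data known. Named genes were the largest changes as measured, after removal, over 100 kb and up to 10 kb, those called only before removal, and the 3 smallest p-values of each list, with a mean of at least 5 CPM in the higher group and no overlap between groups, plus ADAR, ZBP1, SUPT16H, SSRP1, TOP1, HSPA5, MDM2 and CDKN1A; further members were named after their values were seen. Some genes that this rule names are not reported here. Sequences came from RefSeq's promoter table (GRCh38.p14), which held 9707 of the 11985 tested genes.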

Additional observations from a re-analysis of the deposited data

Results flagged for a closer look

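The slope along gene span ran in opposite directions with and without the label MYC O/E. Long minus short, the difference of the median change between genes over 200 kb and genes of up to 5 kb, was -0.76 in Zab over WT and 0.32 in Zab + MYC O/E over MYC O/E when taken from the medians of the libraries. Both Zab libraries lay below both WT libraries, and both Zab + MYC O/E libraries lay above both MYC O/E libraries. ADAR moved the same 2 ways, by -5.94 in Zab over WT and by 6.14 in Zab + MYC O/E over MYC O/E. These differences between the contrasts were not tested.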

How the results depend on the processing

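Counts of genes and the slope along span moved with scaling, tool, filter and library. As measured, 1885 genes rose when scaled to library totals, and on the deposited scale 575 rose and 6882 fell. With the WT pair and the Zab + MYC O/E pair each taken as 1 sample, 1915 genes fell as measured and 1389 after removal of the span trend. Over genes counted on 1 transcript in the 4 libraries, fewer genes were tested: 1834 rose and 1782 fell, and 2003 and 1479 after removal. Long minus short was -0.83 with edgeR and with DESeq2, -0.84 with edgeR on reads divided by 2, -0.61 with a pseudocount of 5 CPM, -0.53 without a filter and -0.64 on 1 transcript, against -0.78. Leaving out 1 library at a time, 2272 to 2731 rose and 2423 to 3072 fell, 2695 to 3159 and 1807 to 2403 after removal, and long minus short ranged from -0.85 to -0.71. Replicate numbers paired no samples (correlations -0.02 to 0.02): with the replicate block, 2854 rose and 3116 fell, and 3210 and 2414 after removal.

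Genes near 0 changed sign. Scaled to library totals, RPS21 was at -0.0047, RPL29 at -0.034 and H2AZ1 at -0.00082. On the deposited scale VCP was at -0.071, GAPDH -0.064, HSPA8 -0.077, SSRP1 -0.20, RPL41 -0.40, RPS21 -0.44, GPX1 -0.36, RPL29 -0.47, H2AZ1 -0.43, MRPL41 -0.27, XBP1 -0.26, PRKCA -0.16 and PSMD2 -0.18. After removal along exon length in place of span, RPL41 was at 0.011, GPX1 0.18, H2AZ1 0.050, MRPL41 0.077, COL1A1 0.15 and DNAJC10 0.27; with span and exon length together DNAJC10 was at 0.17 and COL1A1 at 0.018. ERO1A was at 0.028 with a pseudocount of 0.25 CPM. Leaving out single libraries, the change after removal ranged from -0.16 to 1.73 for H2AC8, -2.82 to 0.014 for ATP8A2, -0.20 to 0.057 for DNAJC10, -0.12 to 0.081 for ERO1A and -0.16 to 0.62 for ERO1B, which ranged from -0.45 to 0.32 as measured. In alternatives chosen after seeing the data, removal of mean level with span gave RPS2 -0.018, GAPDH -0.15, HSPA8 -0.12, SSRP1 -0.11, ZNF609 -0.22, XBP1 -0.11 and PSMD2 -0.10, and 2597 rises and 2708 falls in all. Removal of gene spacing with span gave ZNF609 -0.095, H2AZ1 0.18, ERO1A 0.099 and DNAJC10 0.22; promoter GC with span gave 2562 rises and 1937 falls of 9707 genes, and a curve fitted without histones 3236 and 2383. The causes were not tested. The Zab libraries had the fewest reads, so genes of a few CPM were measured least well there.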
